A study of Mus musculus with 18 samples.

Results

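Angptl4 and 8 further genes of the fatty acid response that is run by the peroxisome proliferator-activated receptors (PPARs) were measured in mouse lung after repeated oral dosing with a mixture of polycyclic aromatic hydrocarbons. Angptl4 was chosen by its fall at the high dose in these arrays. The other 8, Pdk4, Plin2, Cpt1a, Acadm, Ucp3, Lpl, Ppara and Ppard, were chosen by their place in the same programme, with that fall known, to see whether they fell with it. All probes whose RefSeq accession belonged to these genes were taken, which gave 14 probes for 9 of the 20660 genes named on the array. Where a gene had several probes, the brightest stands for it, and the others are given beside it.

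The animals were male Muta Mouse, a transgenic strain that carries a bacterial reporter gene for mutation assays, and were about 12 weeks old. They received the 4PAH-Mix, a defined blend of 4 genotoxic hydrocarbons of coal tar scaled to benzo[a]pyrene (BaP), by gavage for 28 consecutive days in olive oil, and lungs were taken 72 h after the last dose. The 4 groups were 5 mice given olive oil alone (vehicle, mice 1 to 5), 4 mice at the low dose of 12.5 (mice 6, 7, 9 and 10), 5 at the medium dose of 25 (mice 11 to 15) and 4 at the high dose of 50 mg BaP equivalents/kg-bw/day (mice 16, 17, 18 and 20). Each mouse had 1 array, on which Cy5-labelled lung RNA competed with Cy3-labelled reference RNA pooled from 11 mouse cell lines, so each value is a log2 ratio of lung over reference.

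The PPARs are nuclear receptors that bind fatty acids and their derivatives, pair with a retinoid X receptor and switch on genes for the uptake, storage and burning of fat. Angptl4, a secreted protein, is among their best known targets in many tissues. It inhibits lipoprotein lipase, the enzyme on the capillary wall that frees fatty acids from triglyceride-rich particles. Angptl4 also answers to glucocorticoids and to low oxygen, and lists of genes for those inputs were read beside it.

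The receptors bind a direct repeat of a hexamer with 1 base between the copies, and the promoter windows of the genes were searched for it. The motif was AGGTCANAGGTCA, on both strands, with up to 2 mismatches among its 12 fixed letters, in windows from 250 bases before to 50 bases after each gene's start (RefSeq, GRCm38.p6). Of the 32851 windows of the table, 3.86% held such a match. Windows were given for 7 of the 9 genes, not for Angptl4 and Lpl, and 2 of the 7, Plin2 and Ucp3, held a match. They are shown because the genes they precede differed from vehicle in opposite directions at the high dose, lower for Plin2 and higher for Ucp3, neither past the test. Each sequence is printed along its gene's own strand, which is the genome's minus strand for Plin2 (chr4:86670218-86670309) and its plus strand for Ucp3 (chr7:100472891-100472990). The capitals mark the match, which reads as the motif on the strand opposite to the gene at Plin2 and on the gene's own strand at Ucp3.
Plin2: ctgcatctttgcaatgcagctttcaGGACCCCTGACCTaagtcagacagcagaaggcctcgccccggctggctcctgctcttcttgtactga
Ucp3: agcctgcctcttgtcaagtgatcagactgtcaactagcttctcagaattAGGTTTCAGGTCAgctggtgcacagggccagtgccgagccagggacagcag
The match begins 225 bases before the start used in the table at Plin2 and 51 bases before it at Ucp3. Pdk4, Cpt1a, Acadm, Ppara and Ppard held no run of those letters in their windows, with 3 to 5 mismatches at best. Among the genes of the wider lists that passed the test at the high dose, described below, 6 had a window and 0 of these held a match.

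Before the results, 3 features of the arrays bear on them. Each of 3 slides carried mice of every group, but vehicle mice always took the first column of a slide, followed by low, medium and high, so that column and dose cannot be told apart. Between 51.5 and 61.1% of probes were well above background in Cy5 on each array. The lung epithelium markers were high in every mouse, with a mean log2 ratio over 8 genes of 4.80 to 5.45. Their median difference from vehicle was nevertheless -0.20 in high-dose mice and -0.25 in medium-dose mice, against -0.05 in low-dose mice. None of these markers was called. Abca3 stood at -0.35 in high-dose mice (limma adjusted p = 0.0335), under the 1.5-fold limit. The part of this shift in the values of the other genes was not tested. Markers of neighbouring tissues varied widely from mouse to mouse. The mean of 8 adipocyte markers ran from 0.42 to 2.95 and that of 8 cardiomyocyte markers from 0.31 to 4.34, and no marker of either list was called at any dose. In bulk lung, fewer cells of a type and less RNA per cell cannot be told apart.

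Angptl4 (chromosome 17, 33774900 to 33781575, GRCm38.p6; 1 probe, well above background on all 18 arrays) had log2 ratios of 0.60, 0.53, 1.66, 1.65 and 0.44 in vehicle mice 1 to 5. At the low dose the values were 0.36, 0.86, 0.65 and 0.41, and at the medium dose 0.77, 0.23, 0.25, 0.61 and -0.15. In the high-dose mice they were -0.44, -0.39, -0.23 and 0.03. Each high-dose mouse lay below each vehicle mouse, while low and medium doses overlapped the vehicle group. The group means fell in the order of the dose, from 0.97 ± 0.62 (SD, n = 5) to 0.57 ± 0.23 (n = 4), 0.34 ± 0.36 (n = 5) and -0.26 ± 0.21 (n = 4). Neighbouring groups overlapped, the medium and high doses only through medium mouse 15 and high-dose mouse 20. The level at the high dose was 2.35-fold below vehicle, a log2 difference of -1.23. This contrast chose the gene, so no test is given for it.

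The vehicle group of Angptl4 was divided. Mice 3 and 4, the pair on slide 2, stood at 1.66 and 1.65, and mice 1, 2 and 5 of the other slides at 0.60 and below. The high dose was lower than vehicle within each slide, by a log2 difference of -0.41 on slide 1 (1 mouse against 1), -1.88 on slide 2 (1 against 2) and -0.98 on slide 3 (2 against 2). The medium dose differed by -0.58, -1.22 and -0.06 on the same slides and the low dose by -0.02, -1.01 and 0.05. With vehicle mice 3 and 4 left out, the differences from vehicle became 0.05, -0.18 and -0.78 in the order of the dose. With the slide as a block the high-dose difference was -1.17, and with any 1 mouse left out it ran from -1.37 to -1.06.

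**Figure D1:**
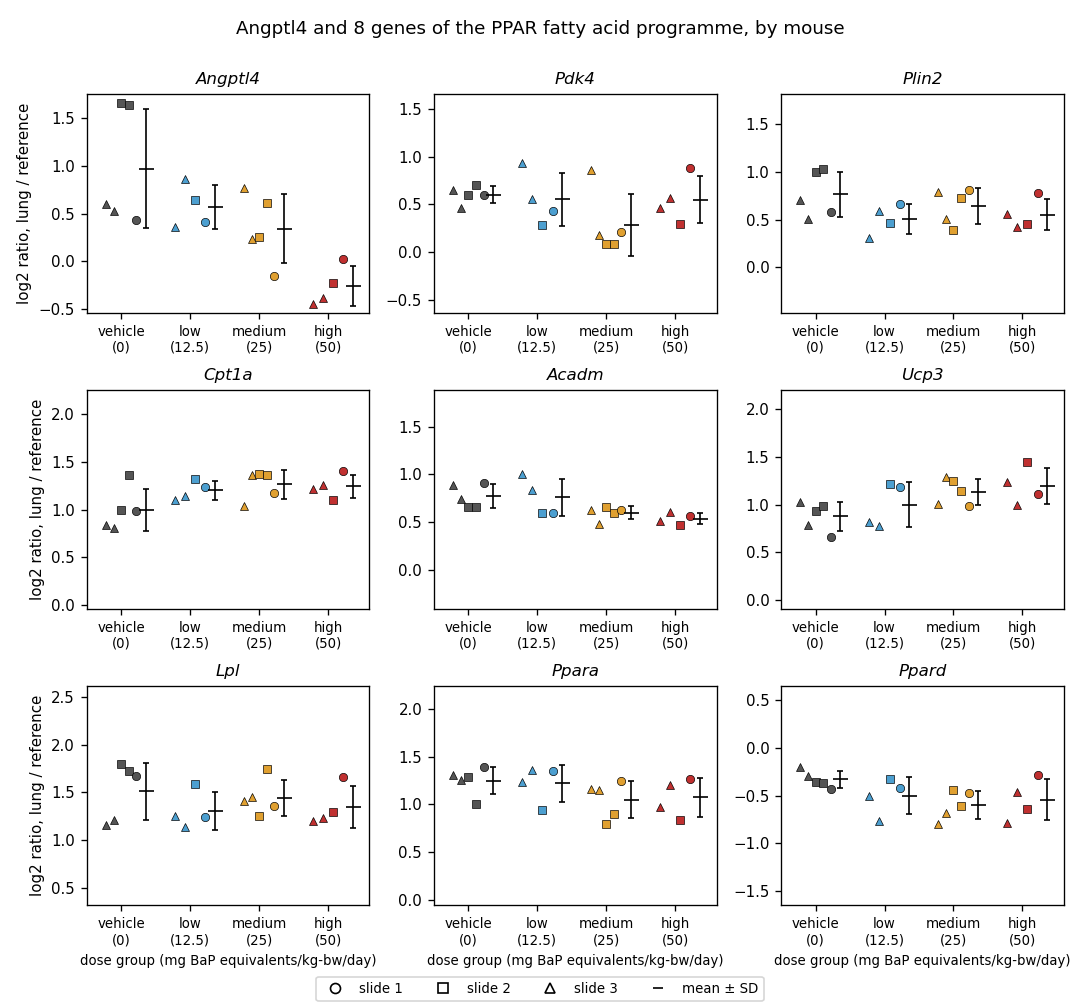
Log2 ratio of lung over reference RNA (y axis, 2.3 log2 units in each panel) for Angptl4 and the 8 further genes in each mouse, by dose group (x axis, mg BaP equivalents/kg-bw/day). Symbols mark the slide and bars the mean ± SD; the Angptl4 panel steps down to the high dose, from 0.97 to -0.26, with vehicle mice 3 and 4 (squares) at the top, and in the other panels the group means stay within 0.32 log2 units of vehicle.

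None of the 8 further genes was called at any dose, a call being an adjusted p of 0.05 or less (limma, Benjamini-Hochberg over 55681 probes) with a change of at least 1.5-fold. Over all probes the share called rose from 0.0898% (low) to 0.726% (medium) and 1.2% (high dose). The median log2 difference of the 8 genes was -0.04, -0.15 and -0.17 at the 3 doses, and 6 of the 8 were below vehicle at each. Over the 13460 genes well above background on all arrays, the median was 0.02, 0.02 and 0.03, and 43% lay below vehicle at the high dose. An unadjusted p under 0.05 was reached by 1, 5 and 3 of the 8 at the low, medium and high dose, where 12.1%, 27% and 27.4% of those 13460 genes reached it. The adjusted p-values of the 8 at the high dose ran from 0.135 to 0.926. By the brightest probes, their 95% intervals at the high dose reached no lower than -0.46, and that of the dimmer Cpt1a probe reached -0.48. Angptl4, chosen for its fall, stood at -1.23, and at -0.78 without vehicle mice 3 and 4. Smaller falls lie within several of the intervals, so these do not settle whether the genes fell with it.

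**Figure D2:**
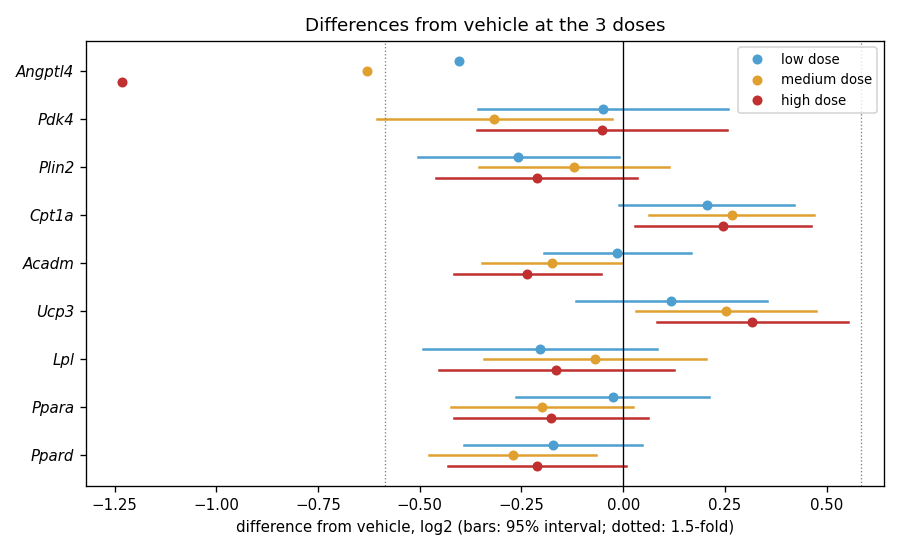
Log2 difference from vehicle at the low, medium and high dose (x axis; dots, with 95% intervals as bars) for each gene. Angptl4, chosen on this contrast, has dots without intervals and lies at -1.23 at the high dose; the intervals of the other 8 genes at the high dose lie between -0.46 and 0.55, and the dotted lines mark a change of 1.5-fold.

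Among the genes that burn fatty acids, Acadm and Cpt1a differed in opposite directions. Acadm, the medium-chain acyl-CoA dehydrogenase of mitochondrial beta-oxidation, had log2 ratios of 0.89, 0.74, 0.66, 0.65 and 0.91 in the vehicle mice and 0.51, 0.60, 0.47 and 0.56 at the high dose. Its vehicle and high-dose groups did not overlap, as was so for 15.3% of the 13460 genes. The log2 difference was -0.24 (SE 0.09, limma adjusted p = 0.152), and it was negative on each slide, at -0.35, -0.19 and -0.26. The medium dose stood at -0.18 and the low dose at -0.02. Acadm was lowest, among vehicle mice, in mice 3 and 4, in which Angptl4 was highest.

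Cpt1a, the carnitine palmitoyltransferase that lets long-chain fatty acids into mitochondria, was measured by 2 probes that disagreed. The brighter, printed 10 times on each array with a median SD between its spots of 0.07, gave 0.84, 0.81, 0.99, 1.36 and 0.99 in vehicle mice and 1.21, 1.25, 1.10 and 1.40 at the high dose. That is a log2 difference of 0.25 (95% interval 0.03 to 0.46, limma adjusted p = 0.234). The dimmer probe differed by -0.25 (95% interval -0.48 to -0.03, limma adjusted p = 0.238), and the mean of both by -0.0049. Both intervals lie on one side of 0, on opposite sides, so no direction is given for the gene.

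Ucp3, a mitochondrial carrier best known from muscle and brown fat, had log2 ratios of 1.02, 0.79, 0.94, 0.99 and 0.66 in vehicle mice. Medium-dose mice ran from 0.99 to 1.29, and the high-dose mice gave 1.24, 1.00, 1.45 and 1.11. The group means stood in the order of the dose, though the groups overlapped, and the difference at the high dose was 0.32 (SE 0.11, limma adjusted p = 0.135). It was positive on each slide, at 0.45, 0.48 and 0.21. The second Ucp3 probe was well above background on 0 of 18 arrays.

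Pdk4, the kinase that switches off pyruvate dehydrogenase when fat is burnt, was nearest to vehicle at the high dose, with a difference of -0.05 (95% interval -0.36 to 0.26, limma adjusted p = 0.926). Vehicle mice ran from 0.46 to 0.70 and high-dose mice from 0.29 to 0.88. Its lowest values were at the medium dose, where mice 12 to 15 stood at 0.18, 0.09, 0.09 and 0.21 and mouse 11 at 0.86. The difference there was -0.32 (SE 0.14, limma adjusted p = 0.268), and without mouse 11 it was -0.46 (limma adjusted p = 0.0413), under the 1.5-fold limit. That mouse was singled out after its value was seen. Over 10 single omissions the difference ran from -0.46 to -0.27 (limma adjusted p from 0.0413 to 0.461). The interval with all 5 mice, -0.61 to -0.03, was the only interval of the 8 genes at any dose to reach beyond a 1.5-fold fall.

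Plin2, a coat protein of lipid droplets, and Lpl, the lipase that the Angptl4 protein inhibits, had the highest Pearson r with Angptl4 among the 8 over the 18 mice. Plin2 had log2 ratios of 0.70, 0.51, 1.00, 1.03 and 0.58 in vehicle mice and 0.56, 0.42, 0.46 and 0.78 at the high dose. Vehicle mice 3 and 4 were the highest of all 18, as for Angptl4. The difference from vehicle was -0.26, -0.12 and -0.21 at the 3 doses (limma adjusted p = 0.6, 0.701 and 0.418). Within slides the high dose differed by 0.19, -0.56 and -0.12, which changes sign between slides.

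Lpl gave 1.16, 1.21, 1.79, 1.72 and 1.67 in vehicle mice and 1.20, 1.23, 1.29 and 1.66 at the high dose. The difference at the high dose was -0.16 (SE 0.14, limma adjusted p = 0.652) by the brighter probe and -0.21 (SE 0.10, limma adjusted p = 0.33) by the dimmer. By the brighter probe, vehicle mice 3 and 4 were again the 2 highest of their group, with mouse 5 close to them. The dimmer gave 1.39, 1.05, 1.69, 1.33 and 1.58 in vehicle mice 1 to 5, with mouse 4 below mice 1, 3 and 5. Within slides the Lpl difference by the brighter probe was -0.0022, -0.46 and 0.03.

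After each gene's group means were taken off, Angptl4 and Plin2 had a Pearson r of 0.67 (Spearman 0.58) over the 18 mice, and Angptl4 and Lpl 0.57 (Spearman 0.50). Without vehicle mice 3 and 4 the values were 0.50 and 0.43. All Lpl values here are those of its brighter probe, and the dimmer was not compared with Angptl4 in this way. For the other 6 genes r lay between -0.39 (Acadm) and 0.43 (Cpt1a). Among 13435 genes ranked by this r, Plin2 stood at place 48 and Lpl at place 180. On the log2 ratios themselves, r was 0.62 for Plin2 and 0.51 for Lpl, and 0.19 and 0.16 without mice 3 and 4, so those rest on these 2 animals. Acadm, at 0.30 over the 18 mice (Spearman 0.46, against 0.49 for Plin2 and 0.34 for Lpl), stood at 0.49 without the pair, the highest of the 8 on that scale. The points share the reference RNA and the slides, and no p is given.

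**Figure D3:**
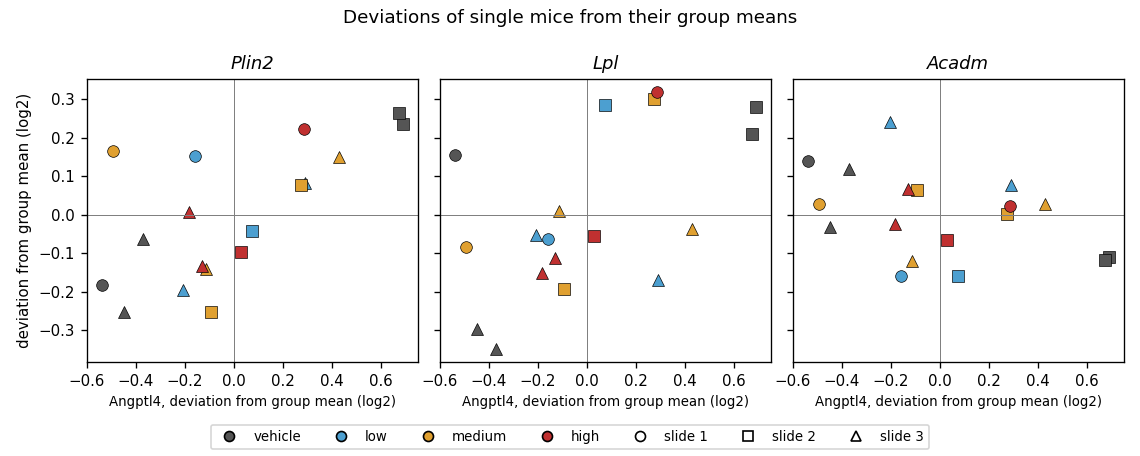
Deviation of each mouse from its group mean (log2 units) for Angptl4 (x axis) against Plin2, Lpl and Acadm (y axes); colours mark dose groups and symbols slides. Vehicle mice 3 and 4 (grey squares) lie at the far right, above 0 for Plin2 and Lpl and below 0 for Acadm. Pearson r is 0.67, 0.57 and -0.39, with Lpl by its brighter probe.

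The genes most like Angptl4 over the 18 mice by Pearson r were none of the 8. They were Stau2 (0.87), an RNA-binding protein, Cd3eap (0.84), a subunit of RNA polymerase I, and Rufy2 (0.82), Tmem42 (0.82) and Ccdc107 (0.81). Once group means were taken off, the 5 highest were Myl6b (0.83), a myosin light chain, Tnip3 (0.81), an inhibitor of NF-kappa-B signalling, Hif3a (0.80), a hypoxia-inducible factor subunit, Slpi (0.80), a secreted protease inhibitor of the airways, and Comtd1 (0.78). Hif3a stood at 0.88 and 0.53 in vehicle mice 3 and 4 and at -0.07, -0.12 and -0.20 in mice 1, 2 and 5, the division seen for Angptl4, but at 0.26, 0.37, 0.58 and 0.97 at the high dose.

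The receptors differed from vehicle by less than 1.5-fold. Ppara, the receptor that drives fatty acid oxidation in liver and heart, ran from 1.01 to 1.39 in vehicle mice and stood at 0.98, 1.21, 0.84 and 1.27 at the high dose. The brightest of its 3 probes differed by -0.18 at the high dose (SE 0.11, limma adjusted p = 0.514), and the others by -0.18 and 0.08. By the brightest probe the difference was negative on each slide, at -0.12, -0.31 and -0.19. Under 12 alternatives other than single omissions it ran from -0.28 to -0.03 (limma adjusted p from 0.00684 to 0.99) and was not called. Ppard, the widely expressed receptor, gave -0.20, -0.29, -0.36, -0.37 and -0.43 in vehicle mice and -0.80, -0.68, -0.45, -0.61 and -0.47 at the medium dose. Those groups did not overlap, as was so for 8.54% of the 13460 genes, and the difference was -0.27 (SE 0.10, limma adjusted p = 0.154). At the high dose its difference was -0.21 (limma adjusted p = 0.338), with mouse 20 at -0.28 inside the vehicle range. At the low dose no further gene's groups were apart from vehicle, as were those of 4.46% of genes. Pparg, the receptor of fat cells and macrophages, was not called at any dose.

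High-dose mouse 20 had the highest adipocyte marker mean of all 18 mice, 2.95, against 0.81 to 1.78 in the other 3 of its group. It was the only high-dose mouse on slide 1, and the next highest means, 2.18 and 2.15, were those of vehicle mouse 5 and medium mouse 15 of that slide. Low-dose mouse 10, also on slide 1, stood at 1.43. Adipoq, the adipocyte hormone, stood at 2.87 in mouse 20 and at 0.18 to 1.20 in the other 3 of its group, and Cfd at 7.09 against 2.49 to 5.06. By the brightest probes, mouse 20 also had the highest Angptl4, Pdk4, Plin2, Cpt1a, Lpl, Ppara and Ppard within the high-dose group. By the dimmer Cpt1a probe it was the lowest of that group, at 0.56. By the dimmest Ppara probe mouse 17 stood above it, at 1.65 against 1.63. Without mouse 20, the high-dose differences were -1.33 for Angptl4, -0.16 for Pdk4, -0.29 for Plin2 and -0.27 for Lpl. They were -0.24 for Ppara and -0.30 for Ppard, and none of the 8 further genes was called. The part of the marker difference in these values was not tested.

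The wider programme and the other inputs to Angptl4 were read in 10 lists that held 153 genes with a probe, 132 of them well above background on all arrays. At the high dose 8 were called, 4 higher and 4 lower, which is 5.23% of the lists against 2.23% of the 13460 genes well above background on all arrays. The lists were chosen with earlier results of these data known, so these shares are no test of the lists. Adm and Cdkn1a, among the 8, came from the hypoxia and glucocorticoid lists. An unadjusted p under 0.05 was reached by 26.8% of the list genes and by 27.4% of those 13460 genes. The list shares are taken over all 153 genes, dim probes included, while those of the 13460 genes leave such probes out. The median difference of the 153 genes was 0.03. With median centring in place of loess, Cdkn1a alone of the 8 was called. Over all 55681 probes, the number called fell from 670 to 80 under that setting.

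Closest to Angptl4 in role, Gpihbp1, the capillary protein that carries lipoprotein lipase to its place of work, fell. It was the only one of 14 measured lipase partners and inhibitors to be called. Its log2 ratios were 6.73, 6.85, 6.03, 6.30 and 6.04 in vehicle mice and 5.44, 5.37, 5.30 and 4.81 at the high dose, without overlap. The difference was -1.16 (SE 0.16, limma adjusted p = 0.000131), and it was negative on each slide, at -1.23, -0.87 and -1.38. The low and medium doses differed by -0.25 and -0.58. With scale normalization between arrays the high-dose difference was -0.83 and no longer called (limma adjusted p = 0.0755). Gpihbp1 is itself a marker of capillary endothelium. The mean of 8 endothelial markers, Gpihbp1 among them, ran from 4.28 to 4.72 in vehicle and from 4.47 to 4.68 in high-dose mice, and the median difference of the 8 at the high dose was -0.02. Besides Gpihbp1, Emcn and Pecam1 were called, higher by 0.81 and 0.74 (limma adjusted p = 0.000323 and 0.000597). Kdr, the main receptor for vascular endothelial growth factor, differed by -0.38 without overlap of the groups (limma adjusted p = 0.0168), under the 1.5-fold limit. Cldn5 (-0.19), Cdh5 (-0.10), Tmem100 (0.05) and Tek (0.31) were not called. Furin, a protease that can cut such lipase regulators, differed by -0.30 (limma adjusted p = 0.0432), under the 1.5-fold limit. None of the other angiopoietin-like genes was called; Angptl2 had the largest difference, 0.51 (limma adjusted p = 0.0156).

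In the lipid droplet, lipase and thioesterase list, Acot1 and Hilpda fell and Dgat2 rose, and 18 of 21 were not called. Acot1, a cytosolic acyl-CoA thioesterase and PPAR target with close paralogues in a gene cluster, had 2.12, 1.84, 1.76, 2.37 and 1.88 in vehicle mice and 1.23, 1.03, 1.29 and 1.48 at the high dose. The groups were apart, with a difference of -0.73 (limma adjusted p = 0.00729). Its neighbour Acot3 differed by 0.49 (limma adjusted p = 0.266). Hilpda, an inhibitor of the triglyceride lipase of droplets that answers to PPARs and low oxygen, fell by 0.61 on the log2 scale (limma adjusted p = 0.00157), with its second probe at -0.59. Its vehicle mice ran from 2.06 to 2.52 and its high-dose mice from 1.54 to 1.86. The call lay close to the 1.5-fold limit and was lost in 5 of 11 alternatives, with values down to -0.33, and with vehicle mouse 3, vehicle mouse 5 or high-dose mouse 20 left out, at -0.57, -0.56 and -0.56.

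Dgat2, the last enzyme of triglyceride synthesis, rose by 0.76 (limma adjusted p = 0.0293). Its highest value at the high dose, 0.38, was in mouse 20, and without that mouse the difference was 0.59 (limma adjusted p = 0.115), no longer called. The call was lost in 6 of 9 such omissions, with vehicle mice 1, 3 and 4 and high-dose mice 16, 17 and 20, where the difference ran from 0.59 to 0.80. It was also lost without vehicle mice 3 and 4 together (0.70, limma adjusted p = 0.131). The part of the adipocyte markers of that mouse in the value was not tested.

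Of 28 genes of mitochondrial and peroxisomal fatty acid oxidation, Cpt1c alone was called. Cpt1c is a relative of Cpt1a known mainly from neurons. It rose from -1.04, -1.16, -1.09, -1.20 and -1.33 in vehicle mice to -0.43, -0.68, -0.59 and -0.36 at the high dose, a difference of 0.65 (limma adjusted p = 0.000124), and the second probe gave 0.60. The next largest in this list were Decr2, a peroxisomal reductase (-0.34, limma adjusted p = 0.0357), and Acads, the short-chain dehydrogenase (0.32, limma adjusted p = 0.0659). The median of the list was 0.08. No gene was called among 15 of fatty acid uptake, binding and activation, where the largest difference was that of Fabp4, the fatty acid binding protein of fat cells (0.71, limma adjusted p = 0.491), nor among 8 of the pyruvate dehydrogenase list.

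Of 20 uncoupling proteins and other PPAR targets none was called. Ucp1, the uncoupler that defines brown fat, had the largest difference, 1.32 (limma adjusted p = 0.0712). It was well above background only in high-dose mice 16 and 20, at 2.30 and 3.11, and lay between -0.10 and 0.52 in the other 16 mice. The mean of 5 brown adipocyte markers was highest in these 2 mice, at 1.81 and 2.52, and elsewhere ran from 0.92 to 1.70. Ucp1 is itself part of that mean, so the mean is not separate evidence about these mice.

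Among 14 nuclear receptors and coregulators, Lpin1, a phosphatidate phosphatase that also acts as a coactivator of PPARs, was called, with a rise of 0.62 (limma adjusted p = 0.0176). Its vehicle mice ran from -0.89 to -0.42 and its high-dose mice stood at 0.15, -0.37, -0.04 and -0.18. The call was lost with vehicle mouse 1 or 5 or high-dose mouse 16 or 18 left out, at 0.58, 0.57, 0.53 and 0.59, and in the Cy5 channel alone, at 0.57. A second, dimmer Lpin1 probe, not well above background on all arrays, differed by -0.0080. The histone acetyltransferase Crebbp (-0.33, limma adjusted p = 0.0295) and the mediator subunit Med1 (-0.27, limma adjusted p = 0.0373) were lower by less than 1.5-fold.

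The inputs to Angptl4 other than PPARs gave mixed counts. Of 18 hypoxia targets, Adm, the vasodilator peptide adrenomedullin, was called lower at the high dose, by -1.04 (limma adjusted p = 0.00807). Vehicle mice 1 and 5 stood highest for it at -1.84 and mouse 2 lowest at -3.08, within the high-dose range of -3.59 to -3.04. Pfkfb3, a glycolytic regulator, was called higher at the medium dose only, at 0.68 (limma adjusted p = 0.000943), and its second probe differed by 0.14 there. At the high dose its brighter probe stood at 0.50 (limma adjusted p = 0.0145), under the 1.5-fold limit, and the second at -0.02. Ndrg1 stood at 0.41 at the high dose (limma adjusted p = 0.0269). The median of the hypoxia list was -0.05.

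Of 12 glucocorticoid receptor targets, Cdkn1a rose at all doses, by 1.39, 2.09 and 2.47 (limma adjusted p = 5.92e-06, 1.82e-09 and 2.08e-10). Cdkn1a, the cell cycle inhibitor p21, is also a main target of p53. Per1, a clock gene that glucocorticoids induce, was called at the medium dose, at 0.84 (limma adjusted p = 0.00291), and stood at 0.48 at the high dose (limma adjusted p = 0.111). The remaining 10 were not called at any dose.

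**Figure D4:**
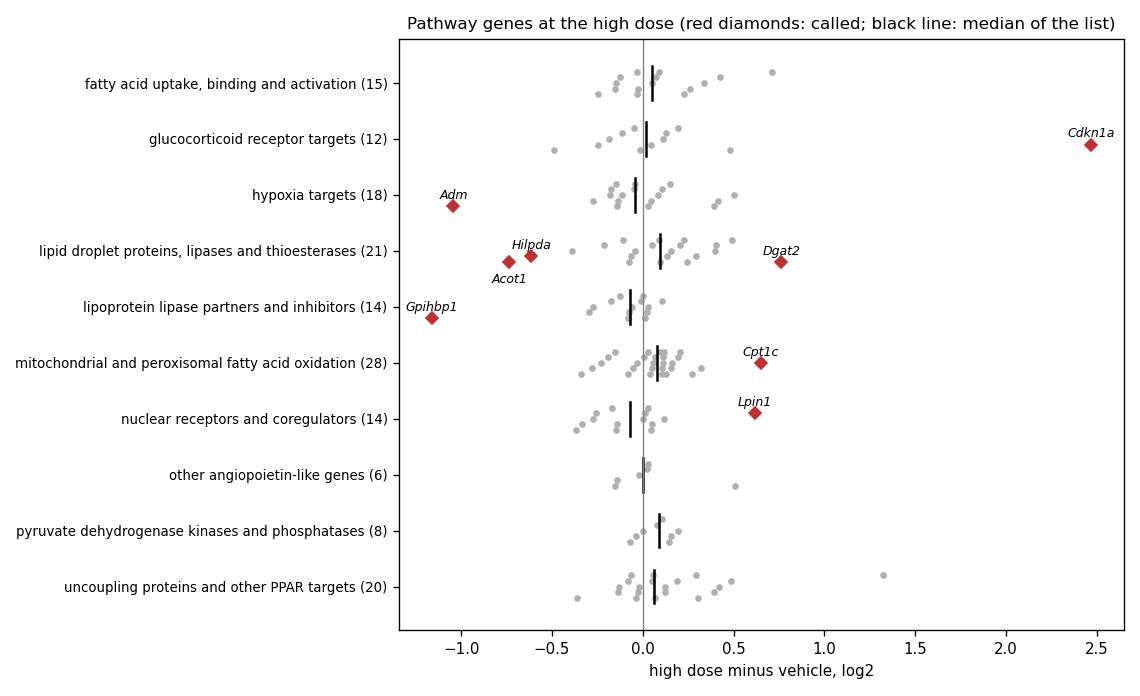
Log2 difference of the high dose from vehicle (x axis) for each gene of the 10 lists (y axis, number of genes in brackets). Red diamonds mark the 8 genes called and black lines the list medians, which lie between -0.07 and 0.09.

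All but Lpin1 of the 8 genes called in the lists had group means in the order of the dose. Gpihbp1, Acot1, Hilpda and Adm had lower means at each step, at 6.39, 6.14, 5.81 and 5.23 for Gpihbp1, 1.99, 1.85, 1.44 and 1.26 for Acot1, 2.31, 1.93, 1.79 and 1.69 for Hilpda and -2.30, -2.95, -2.96 and -3.34 for Adm. Cdkn1a, Dgat2 and Cpt1c had higher means at each step, and Lpin1 was highest at the medium dose. The comparisons share the vehicle mice. Unlike Angptl4, none of the 4 that fell had vehicle mice 3 and 4 as a pair above the rest, since Gpihbp1 was highest in vehicle mice 1 and 2, Hilpda in 3 and 5, Acot1 in 1 and 4 and Adm in 1 and 5. Without these 2 vehicle mice the high-dose values of Gpihbp1, Acot1 and Adm were still called, and Hilpda stood at -0.55, under the 1.5-fold limit.

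**Figure D5:**
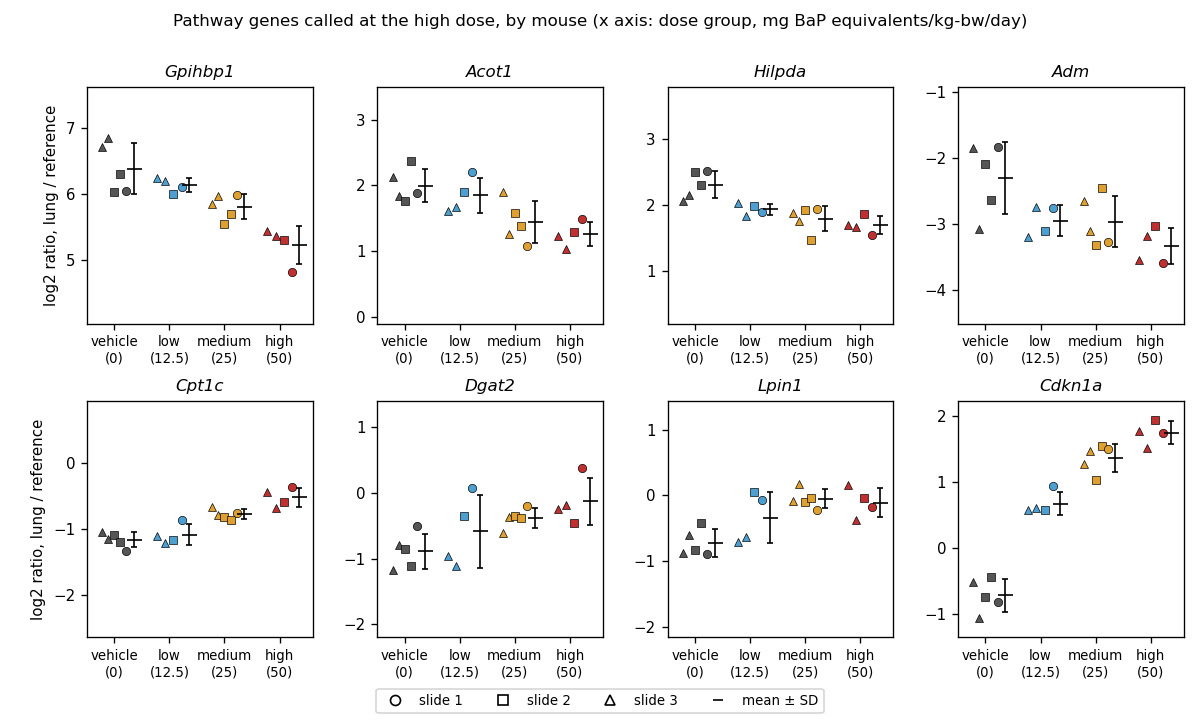
Log2 ratio of lung over reference (y axis, 3.6 log2 units in each panel) by mouse and dose group for the 8 list genes called at the high dose; symbols mark slides and bars the mean ± SD. The upper panels hold the genes that fell (Gpihbp1 from a mean of 6.39 to 5.23) and the lower panels those that rose (Cdkn1a from -0.72 to 1.75).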

How the data were processed

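Lung RNA of 18 mice was hybridized to two-colour Agilent arrays against a common reference, with no dye swap. The authors deposited scanner output with median signal intensities (Feature Extraction 11.0.1.1 per the file headers) and its log10 ratios, and a table of log2 ratios. Set against the scanner values, that table held Cy5 over Cy3 (r at least 0.995 with the values used here). Scale and direction thus follow from the arrays. The study's methods name LOWESS on median signals that had no background taken off.

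From the unsubtracted medians, log2 ratios were normalized by loess within arrays (limma 3.58.1, R 4.3.3), with control and outlier spots at weight 0. Outlier spots (215 to 307 per array) and control probes were then dropped, and spots of 1 probe averaged. The 4 groups were fitted together by limma, with Benjamini-Hochberg adjustment over 55681 probes. The study's MAANOVA test was not run. The number of arrays limits the precision.

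Accessions were named through a RefSeq table of GRCm38.p6 (27235 probes). The 9 genes and all lists were chosen with earlier results of these data known. Named genes are the 9, list genes called at any dose, the largest further differences of each list, and the 5 genes most like Angptl4 by each measure. Adipoq, Cfd, Pparg, Abca3 and the endothelial markers fall outside that rule and were picked with their values known. The model was tested on simulated data. Alternatives are listed in the closing section.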

Additional observations from a re-analysis of the deposited data

Results flagged for a closer look

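Of 36 groups tested (9 genes by 4 groups), 1 held a mouse far from the others of its group by Dixon's ratio, where chance gives about 1 in 20. Pdk4 in medium mouse 11 stood at 0.86, while the other 4 medium mice ran from 0.09 to 0.21 (ratio 0.839, critical value 0.71). Without this mouse, singled out by its value, the medium-dose difference of Pdk4 went from -0.32 (limma adjusted p = 0.268) to -0.46 (limma adjusted p = 0.0413).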

How the results depend on the processing

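None of the 8 further genes was called under any alternative. Angptl4 was chosen by its high-dose contrast, so only its values are given. Under median centring in place of loess its high-dose difference shrank from -1.23 to -0.91. Median centring left 1 of the 8 list genes called (Cdkn1a), and the Cy5 channel alone left 5. With single mice left out, 6 to 8 list genes were called. Without vehicle mice 3 and 4, chosen after their values were seen, 6 were. Over all 55681 probes, 670 were called at the high dose in the fit used here. Median centring called 80 and the Cy5 channel alone 547. Single omissions called 548 to 682, and leaving out vehicle mice 3 and 4 called 572.

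Of 561 values of the 9 genes under alternatives, 26 changed sign, of which 1 was of Angptl4, at the low dose without vehicle mice 3 and 4 (0.05), and 25 of the other genes. Under median centring these were Pdk4 (0.0028) and Acadm (0.12) and Ppara (0.067) at the low dose, Plin2 (0.072), Acadm (0.013) and Lpl (0.087) at the medium dose, and Pdk4 (0.039), Plin2 (0.049), Acadm (0.020), Lpl (0.075) and Ppard (0.0074) at the high dose. Acadm at the low dose was 6.97e-05 by the scanner software's ratio and 0.0072 in the authors' table. Without vehicle mice 3 and 4, Plin2 (0.046) and Lpl (0.094) at the medium dose turned positive. The mean of its probes gave Cpt1a -0.0049 at the high dose. With single mice left out, the values ran from -0.18 to 0.039 for Pdk4, -0.096 to 0.038 for Acadm and -0.087 to 0.067 for Ppara at the low dose, from -0.16 to 0.00069 for Lpl at the medium dose and from -0.16 to 0.035 for Pdk4 at the high dose. The cause was not tested. Aquantile normalization leaves ratios as they are. No paired analysis was possible because no mouse number occurs in more than 1 group.

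Beside median centring, the call of Hilpda was lost in the authors' table (-0.56), with scale normalization (-0.49), in the Cy5 channel alone (-0.54) and without vehicle mice 3 and 4 (-0.55). Those of Cpt1c (0.54) and Lpin1 (0.57) were lost in the Cy5 channel alone, that of Gpihbp1 with scale normalization (-0.83) and that of Dgat2 without vehicle mice 3 and 4 (0.70). With single mice left out, calls were lost in 6 of 9 omissions for Dgat2, 4 for Lpin1 and 3 for Hilpda. Ratios of dim probes are pressed towards 0 because background was not subtracted.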
